A study of Mus musculus with 2 samples.

Results

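The enzymes described here make serine and pass its carbon to folate, and they are the products of 8 genes: Phgdh, Psat1, Psph, Shmt1, Shmt2, Mthfd2, Mthfd1l and Aldh1l2. They were found by symbol among the 24984 gene symbols of the expression matrices, and all 8 were listed in both libraries. The genes were selected on measured values of these libraries, their levels in muscle stem cells (MuSCs) and in activated fibro-adipogenic progenitors (FAPs), so every level and ratio below is a description and carries no test. Hind limb muscle cells of dystrophic mdx mice were profiled by droplet single-cell RNA sequencing in 2 groups. Ctrl mice were Pax7CreERT2/R26YFP; Yy1+/+; mdx and double knockout (dKO) mice were Pax7CreERT2/R26YFP; Yy1f/f; mdx, so both groups carried the inducible Cre, the YFP reporter and the dystrophin mutation. Both groups received tamoxifen (TMX) on 5 days from 1.5 months of age, and muscle was collected 1 month later. The Cre is driven from Pax7, so the transcription factor YY1 is deleted in MuSCs and their descendants and not directly in other cells. Live mononuclear cells of 3 mice per group were pooled into 1 library, so there is no replicate and no test of dKO against Ctrl.

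Cells build serine from a glycolytic intermediate in a chain of 3 enzymes: PHGDH oxidises 3-phosphoglycerate, PSAT1 transfers an amino group to the product, and PSPH removes the phosphate. Serine hydroxymethyltransferase then splits serine into glycine and a carbon unit carried by folate, in the cytosol (SHMT1) or in mitochondria (SHMT2). In mitochondria MTHFD2 oxidises that unit, MTHFD1L releases it as formate for the synthesis of purines and thymidylate, and ALDH1L2 oxidises it to carbon dioxide while producing NADPH. The pathway is best known from proliferating cells, and several of its genes are targets of ATF4, the transcription factor of the amino acid response.

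The promoter windows of Psph, Shmt2 and Mthfd2 are shown because these enzymes differed most between dKO and Ctrl MuSCs among those detected in both libraries with a counting interval that left out 1. Each window holds 250 bases before and 50 bases from the annotated start, the latter in capitals, taken from RefSeq on build GRCm38.p6. All 3 genes lie on the minus strand, at chr5:129787204-129787503 for Psph, chr10:127522395-127522694 for Shmt2 and chr6:83317555-83317854 for Mthfd2.
Psph: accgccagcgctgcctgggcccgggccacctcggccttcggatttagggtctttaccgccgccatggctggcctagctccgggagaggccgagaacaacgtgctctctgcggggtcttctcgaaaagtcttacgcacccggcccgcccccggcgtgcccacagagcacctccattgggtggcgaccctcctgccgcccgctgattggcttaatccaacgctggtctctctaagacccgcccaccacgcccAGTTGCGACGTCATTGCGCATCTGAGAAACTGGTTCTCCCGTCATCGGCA
Shmt2: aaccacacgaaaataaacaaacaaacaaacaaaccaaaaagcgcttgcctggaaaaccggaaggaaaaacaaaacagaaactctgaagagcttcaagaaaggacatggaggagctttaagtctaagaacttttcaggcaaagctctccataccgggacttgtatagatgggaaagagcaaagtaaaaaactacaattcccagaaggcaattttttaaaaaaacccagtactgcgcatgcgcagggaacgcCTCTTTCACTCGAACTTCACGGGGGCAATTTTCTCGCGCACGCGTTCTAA
Mthfd2: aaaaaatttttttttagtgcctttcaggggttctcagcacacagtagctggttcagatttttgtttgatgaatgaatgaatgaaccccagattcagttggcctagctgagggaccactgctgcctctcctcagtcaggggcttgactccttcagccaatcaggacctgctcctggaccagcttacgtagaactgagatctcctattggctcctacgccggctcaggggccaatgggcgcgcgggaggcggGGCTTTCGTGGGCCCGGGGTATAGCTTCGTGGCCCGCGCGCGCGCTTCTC
Windows were on hand for 7 of the 8 genes, 8 windows in all because Psat1 has 2. TGATGNAA, a core of the composite element bound by ATF4 with C/EBP partners, was in none of the 8 windows on either strand and in 3.97% of all 32851 windows of this length. TGATGCAA, a form contained in the first motif, was in none of them and in 0.895% of all windows. AANATGGC, a core of the YY1 motif searched after the data were seen, was in none of them and in 6.05% of all windows. These counts say only that the letters are not in these 300-base windows. Windows of some genes of the amino acid response described below were searched too. Those of Asns, Atf3, Chac1 and Trib3 held TGATGNAA, and those of Ddit3 and Sesn2 did not. For comparison, a stretch of the window of Asns, asparagine synthetase, is shown. Its TGATGNAA match is in capitals, at chr6:7693225-7693232 on the minus strand.
Asns: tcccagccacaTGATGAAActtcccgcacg
In the GENCODE M21 annotation of GRCm38 all 8 genes are protein-coding. Phgdh spans chr3:98313170-98339990, Psat1 chr19:15904678-15947337, Psph chr5:129765558-129787449 and Shmt1 chr11:60788104-60811718. Shmt2 spans chr10:127517123-127522444, Mthfd2 chr6:83305691-83325908, Mthfd1l chr10:3973118-4167081 and Aldh1l2 chr10:83487450-83534140. Mthfd1l lies on the plus strand and the other 7 on the minus strand. The GENCODE spans of Mthfd2, Psat1 and Shmt1 begin upstream of the RefSeq windows, and starts outside the windows were not searched for motifs.

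The matrices held 4527 cells with 45556596 unique molecular identifiers (UMIs, counted transcript molecules) in Ctrl and 3483 cells with 33815155 UMIs in dKO, and 7 barcodes occurred in both. After filtering, 4010 Ctrl and 3079 dKO cells remained, with medians of 7880 and 7806 UMIs per cell. Clusters were named from marker genes, and a name ending in "-like" was given in this way. The MuSC-like class had 118 Ctrl and 30 dKO cells, the FAP-like class 1098 and 1150, the monocyte/macrophage (MO/MP)-like class 1177 and 948, and the endothelial cell (EC)-like class 464 and 179. A cluster that met no name held 6.08% of Ctrl and 5.91% of dKO cells. Over both libraries Pax7 was at 55.3 counts per 1e6 UMIs (CPM) in MuSC-like cells, Pdgfra at 331 CPM in FAP-like cells, Csf1r at 474 CPM in MO/MP-like cells and Pecam1 at 1367 CPM in EC-like cells. Yy1 was at 160 CPM in Ctrl MuSC-like cells, with UMIs in 84 of 118 cells, and at 4.85 CPM in dKO MuSC-like cells, where its 3 UMIs came from 1 of 30 cells. The FAP-like class held 121 and 132 CPM of Yy1. Levels are UMIs summed over the cells of a class, and ranges in parentheses are exact 95% intervals of counting error only, which include neither the spread between mice nor that between preparations.

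By pooled UMIs, to which deep cells give most, MuSC-like cells had the highest sum of the 8 enzymes among classes of at least 30 cells, 532 CPM (503 to 563) for Ctrl and, for dKO, 808 CPM (739 to 882). This was 4.49-fold (4.21 to 4.78) the level in all other cells in Ctrl and 5.98-fold (5.44 to 6.56) in dKO. Cycling FAP-like cells, 37 in each library, came next with 387 CPM (353 to 424) and 428 CPM (394 to 465). FAP-like cells held 158 and 160 CPM, MO/MP-like cells 58.2 and 47.9 CPM, and EC-like cells 33.9 and 25.2 CPM. By pooled UMIs the order of these 5 classes was the same in both libraries and their intervals did not overlap within a library. Cycling immune cells, described below, and T cell-like cells are not among the 5. They stood between cycling FAP-like and FAP-like cells in both libraries. By the median single cell MuSC-like cells did not lead. The median MuSC-like cell had a sum of 259.5 CPM in Ctrl and 228 CPM in dKO, against 286 and 410 CPM in cycling FAP-like cells. The means of single cells were 347 and 348 CPM for Ctrl, and 466.5 and 397 CPM for dKO.

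Phgdh, the entry enzyme of serine synthesis, stood at 234 CPM (215 to 255) in the Ctrl MuSC-like class and 276 CPM (237 to 321) in the dKO one. FAP-like cells held 45.7 and 46.3 CPM, whereas EC-like cells held 1 UMI in Ctrl and 0 in dKO. With every cell thinned to 2000 UMIs, 27 of 112 Ctrl MuSC-like cells had a Phgdh UMI, or 24.1% (16.5 to 33.1), and 8 of 30 dKO cells did, or 26.7% (12.3 to 45.9). Without thinning the shares were 56.8% and 43.3%. As a measure of background, the thinned share in EC-like cells was 1 of 397 in Ctrl and 0 of 143 in dKO, the latter with an exact upper limit of 2.55%. Median depths were 10990 and 9802 UMIs in MuSC-like and 4662 and 3802 UMIs in EC-like cells. Thinning left out 6 MuSC-like and 67 EC-like cells in Ctrl, and 0 and 36 in dKO.

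**Figure D1:**
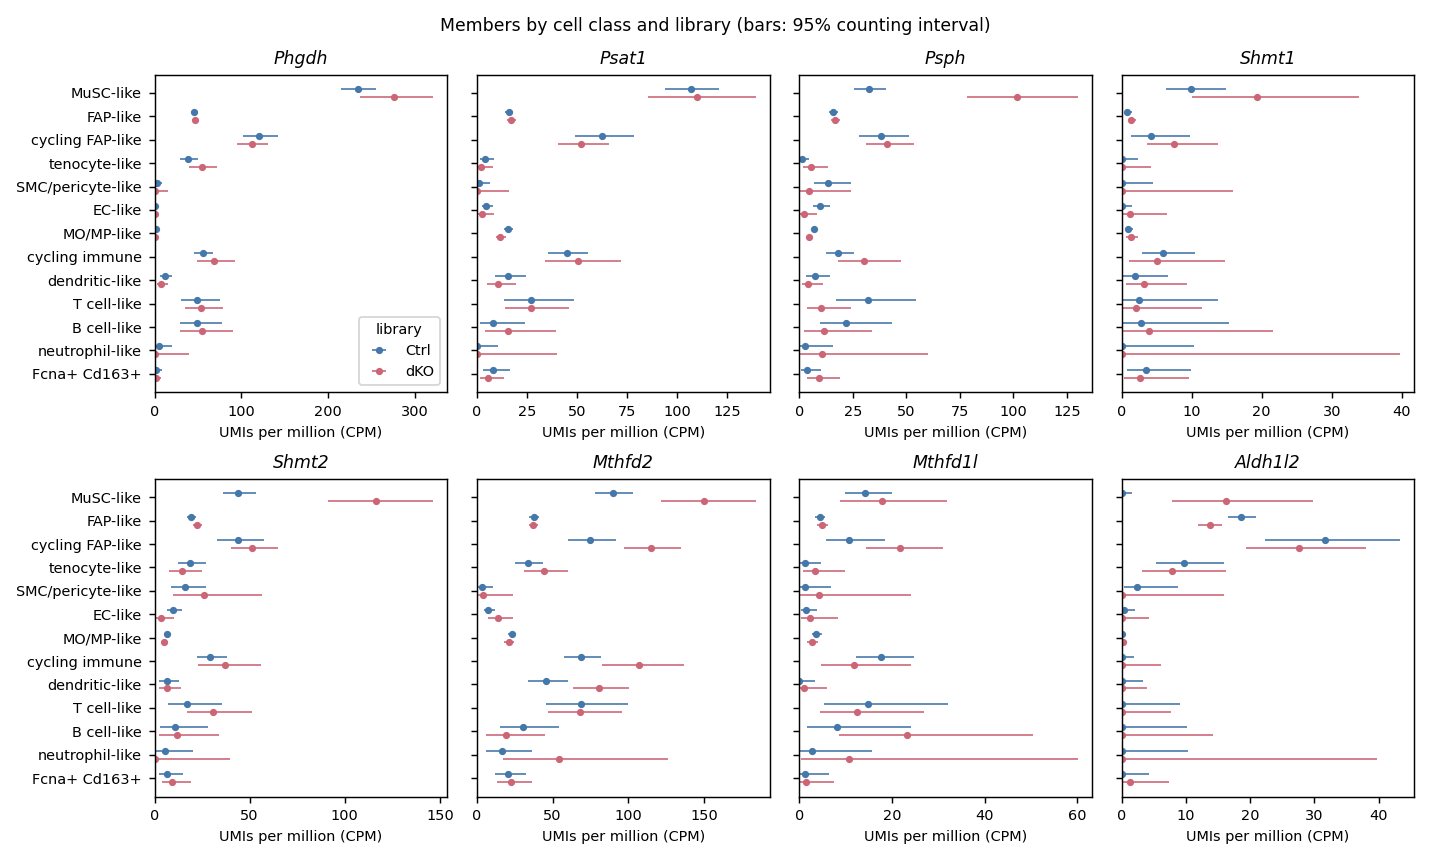
Level of each of the 8 enzymes in 13 cell classes, in CPM, for Ctrl (blue) and dKO (red), 1 panel per gene with exact 95% counting intervals. The row Fcna+ Cd163+ is the cluster left without a name. MuSC-like cells stand highest for Phgdh and Psat1 in both libraries. Most Aldh1l2 UMIs are in FAP-like and cycling FAP-like cells, with 10 in dKO MuSC-like cells.

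Psat1, which takes the second step, was at 107 CPM (93.9 to 121) and 110 CPM (85.3 to 139) in Ctrl and dKO MuSC-like cells, against 15.8 and 17.1 CPM in FAP-like cells. Shmt1, the cytosolic hydroxymethyltransferase, was low throughout, with 23 and 12 UMIs in MuSC-like cells (9.95 and 19.4 CPM) and at most 7.46 CPM in any other class of at least 30 cells. MuSC-like cells were not highest for every enzyme. In Ctrl, Psph was at 38.3 CPM in cycling FAP-like and 32.4 CPM in MuSC-like cells, and Shmt2 was at 44.1 CPM in both, with overlapping intervals. Mthfd1l, the formate-releasing enzyme, was highest in cycling immune cells in Ctrl (17.6 CPM) and in B cell-like cells in dKO (23.2 CPM, 6 UMIs), and both intervals overlapped those of MuSC-like cells at 14.3 and 17.8 CPM. Mthfd2 was at 90.0 and 150 CPM in MuSC-like cells, against 74.9 and 115 CPM in cycling FAP-like, 68.9 and 107 CPM in cycling immune and 68.9 and 68.1 CPM in T cell-like cells. In both libraries the interval of cycling FAP-like cells overlapped that of MuSC-like cells.

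The balance of the first 2 enzymes of serine synthesis differed between classes. MO/MP-like cells held 24 Phgdh and 190 Psat1 UMIs in Ctrl and 9 and 92 in dKO, that is 0.126 (0.0790 to 0.194) and 0.0978 (0.0434 to 0.194) Phgdh UMIs per Psat1 UMI. For the FAP-like class the ratio was 2.89 (2.49 to 3.37) and 2.71 (2.35 to 3.13). For the MuSC-like class it was 2.19 (1.88 to 2.56) and 2.52 (1.89 to 3.38). Tenocyte-like cells lay at the other end, with 60 Phgdh and 6 Psat1 UMIs in Ctrl and 48 and 2 in dKO. Macrophage-like cells thus held Psat1 transcripts with few Phgdh transcripts in both libraries, and FAP-like and MuSC-like cells held both. Counts are from transcript ends, so the ratio is compared between classes and does not give the relative amount of the 2 transcripts.

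**Figure D2:**
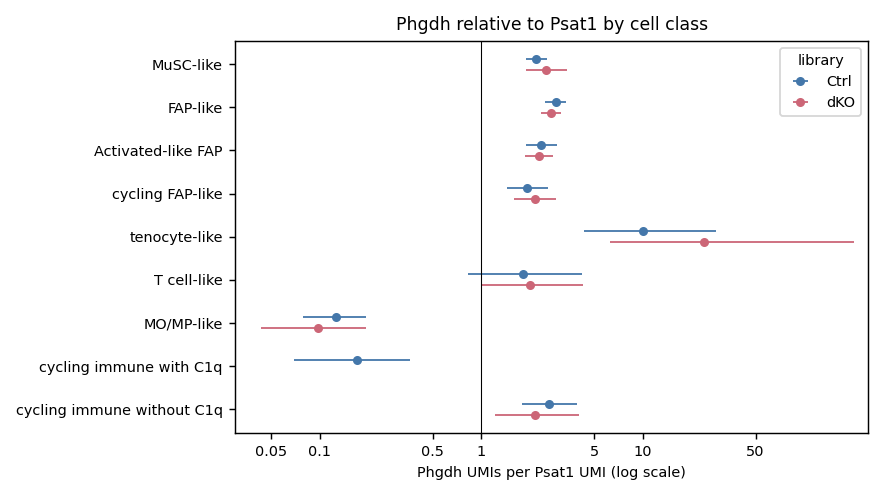
Phgdh UMIs per Psat1 UMI on a log axis, for Ctrl and dKO, with exact 95% counting intervals. Drawn are selected classes, the Activated-like FAP state and the cycling immune cells split by C1q genes, both described below. B cell-like and dendritic-like cells are not drawn. MO/MP-like cells lie at 0.126 and 0.0978, and MuSC-like and FAP-like cells lie between 2.19 and 2.89.

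A cluster of cycling immune cells, 104 in Ctrl and 36 in dKO, was named from macrophage markers but was mixed. It held 105 Phgdh UMIs in Ctrl, of which 8 were in the 47 cells with at least 10 UMIs of the macrophage complement genes C1qa, C1qb or C1qc, a split chosen after seeing the data. Another 42 were in 14 cells with at least 3 UMIs of the neutrophil precursor genes Mpo or Elane, and 21 in 8 cells with the B cell genes Cd79a or Cd79b. In dKO, 26 of its 41 Phgdh UMIs were in 5 cells with Cd3 genes of T cells and 2 in the 12 C1q cells. The C1q cells of Ctrl had 0.170 (0.0695 to 0.364) Phgdh UMIs per Psat1 UMI and the others 2.62 (1.78 to 3.94). Against MO/MP-like cells the sum of the 8 enzymes was 2.52-fold (2.09 to 3.02) in C1q cells of Ctrl and 3.98-fold (2.87 to 5.42) in those of dKO.

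Aldh1l2, the NADPH-producing mitochondrial enzyme, had the narrowest distribution by share of UMIs, which follows the size and depth of a class. Of its 333 Ctrl UMIs 277 came from the FAP-like class (83.2%), as did 210 of 266 in dKO (78.9%), and the cycling FAP-like class gave a further 11.4% and 13.9%. Tenocyte-like cells held 15 and 7 UMIs, and the smaller MuSC-like class held 0 in Ctrl and 10 (3.76%) in dKO. In MO/MP-like cells 0 UMIs were counted in Ctrl and 1 in dKO, and T cell-like, B cell-like and dendritic-like cells held 0 in both libraries.

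Within the FAP-like class, sub-clusters were named from state markers, and the Activated-like state, led by the chemokine gene Cxcl5 with Il1rl1 and Lif, held 93 Ctrl and 132 dKO cells. Their 8 enzymes summed to 515 CPM (484 to 548) for Ctrl, and to 409 CPM (385 to 434) for dKO. Fibrogenic-like cells held 90.2 and 92.4 CPM, Transitional-like cells 85.9 and 73.9 CPM, and Adipogenic-like cells 58.1 and 68.1 CPM. Activated-like cells thus held 4.92-fold (4.53 to 5.34) the level of the remaining FAP-like class in Ctrl, and 3.82-fold (3.53 to 4.14) in dKO. With cells of at least 200 genes, where 2 sub-clusters took the name, the log2 ratio was 0.68 against 2.30 in Ctrl and 0.50 against 1.93 in dKO. These levels were among those used to choose the genes. A Stressed-like sub-cluster of 39 cells was found in dKO alone. Its 38 cells of the FAP-like class, without 1 that lay in the cycling FAP-like cluster, had a sum of 172 CPM from 19 UMIs and a median of 1910 UMIs per cell.

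All 8 enzymes were higher in Activated-like than in other FAP-like cells in both libraries with intervals above 1, but not by the same factor. Phgdh was 4.51-fold (3.86 to 5.27) higher in Ctrl and 3.79-fold (3.26 to 4.40) in dKO, and Psat1 was 6.61-fold (5.08 to 8.61) and 5.30-fold (4.13 to 6.81) higher. Mthfd2 was 6.32-fold and Mthfd1l 10.0-fold higher in Ctrl. Aldh1l2 had the smallest factor, 1.65-fold (1.21 to 2.23) in Ctrl and 1.57-fold (1.12 to 2.16) in dKO, and its intervals did not overlap those of Phgdh, Psat1 or Mthfd2. Cell cycle genes were among the leading genes of this state (Mcm5, Mcm3), and its cells were deeper, with a median of 19260 UMIs in Ctrl against 11090 in other FAP-like cells. The part of either in the result was not tested.

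**Figure D3:**
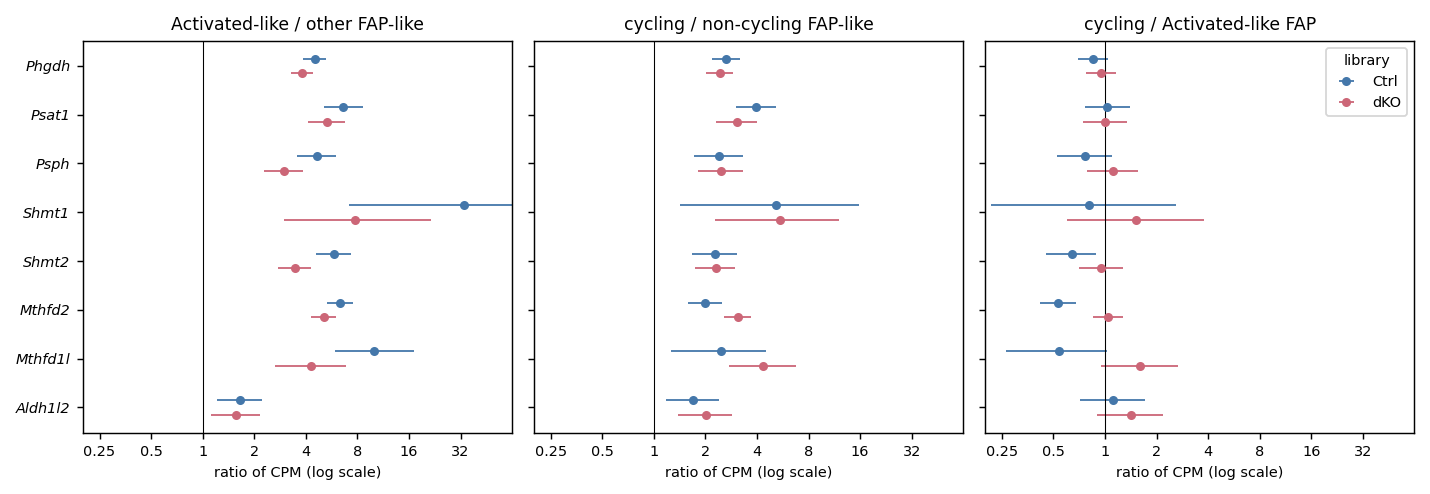
Ratio of CPM of each enzyme between FAP groups in Ctrl (blue) and dKO (red), on log axes with exact 95% counting intervals: Activated-like over other FAP-like cells, cycling over non-cycling, and cycling over Activated-like. In the left panel Aldh1l2 lies lowest at 1.65 and 1.57, and the upper bound for Shmt1 in Ctrl, 313, runs off the axis.

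Cycling FAP-like cells, named from genes such as Top2a and Mki67, had a sum 2.45-fold (2.21 to 2.70) that of the non-cycling class for Ctrl and 2.68-fold (2.45 to 2.94) for dKO. Set against Activated-like cells they were at 0.752-fold (0.672 to 0.840) in Ctrl and 1.05-fold (0.944 to 1.16) in dKO. The interval of the second ratio held 1. The median single cell had 286 CPM in the cycling and 323 CPM in the Activated-like state of Ctrl, and 410 and 331 CPM in those of dKO.

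MuSC-like cells fell into stem-like cells, 71 in Ctrl and 17 in dKO, and differentiating-like cells, 47 and 13, which were led by muscle genes such as Myh3 and Acta1 and also carried cell cycle genes. The 8 enzymes summed to 639 CPM (602 to 678) in differentiating-like and 214 CPM (179 to 256) in stem-like cells of Ctrl. In dKO the sums were 949 CPM (866 to 1037) and, from 15 UMIs, 140 CPM (78.1 to 230). In Ctrl, Phgdh was 3.64-fold (2.69 to 5.03) higher in differentiating-like cells, Psat1 4.56-fold (2.79 to 7.97), Psph 3.28-fold (1.51 to 8.45) and Mthfd2 1.51-fold (1.06 to 2.21). Differentiating-like cells were much deeper, with medians of 40200 and 48620 UMIs against 6151 and 5435. A finer split, chosen after seeing the data, put the cells of the libraries into its sub-clusters in different proportions. A stem-like sub-cluster of 37 cells held Ctrl cells alone, and a cycling-like one held 16 Ctrl and 2 dKO cells. MuSC-like cells with a cell cycle UMI after thinning held 1.97-fold (1.74 to 2.23) the sum of those without in Ctrl and 1.60-fold (1.34 to 1.92) in dKO.

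Between dKO and Ctrl MuSC-like cells the enzymes differed unequally. Psph, Shmt2 and Mthfd2 were higher in dKO, Aldh1l2 was detected in dKO alone, and Phgdh and Psat1 had intervals that held 1. Psph, which completes serine synthesis, was at 32.4 CPM (75 UMIs) in Ctrl and 102 CPM (63 UMIs) in dKO, a ratio of 3.14 (2.21 to 4.45). Shmt2 was at 44.1 CPM (102 UMIs) and 116 CPM (72 UMIs), a ratio of 2.64 (1.92 to 3.60). Mthfd2 was at 90.0 CPM (208 UMIs) and 150 CPM (93 UMIs), a ratio of 1.67 (1.29 to 2.14). By contrast the ratio was 1.18 (0.987 to 1.40) for Phgdh and 1.03 (0.775 to 1.35) for Psat1, and for both the interval lay below that of Psph. Shmt1 had a ratio of 1.95 (0.884 to 4.08) and Mthfd1l 1.25 (0.568 to 2.53), each from few UMIs. The sum of pooled UMIs was 1.52-fold (1.37 to 1.69) higher in dKO. By its sum the median MuSC-like cell was not higher in dKO, with 259.5 CPM in Ctrl and 228 CPM in dKO. The median was 93.5 and 0 CPM for Phgdh and 0 and 35.1 CPM for Mthfd2. For Psph and for Shmt2 it was 0 CPM in both libraries.

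Aldh1l2 was at 0 UMIs in the 118 Ctrl MuSC-like cells and at 10 UMIs in 5 of 30 dKO cells. The dKO level was 12.4-fold that of 3 counts in the Ctrl class, which is a set floor and gives no lower limit of the difference. The 5 cells held 33590 to 62440 UMIs each, and the 28 Ctrl MuSC-like cells of that depth held 0 Aldh1l2 UMIs. The 12 FAP markers were present in the 5 cells, with 58 UMIs or 238 CPM (180 to 307), 35 of them of Col3a1, and 5 of 12 at 0. In the 28 Ctrl cells they summed to 382 CPM (350 to 416), with 2 at 0. The 13 MO/MP markers were at 26 UMIs in the 5 cells and the 10 EC markers at 0. The 9 myocyte markers summed to 6465 CPM (6150 to 6792) in the 5 cells and 3094 CPM (3002 to 3188) in the 28 Ctrl cells. The 11 MuSC markers summed to 3241 and 5186 CPM, so the 2 groups were alike in depth and not in these markers. In the 3 dKO cells of that depth without Aldh1l2 the sums were 5671 CPM for myocyte and 5694 CPM for MuSC markers. The part of other cell types or of cell state in the Aldh1l2 UMIs was not tested.

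Of the 7 enzymes with at least 20 UMIs over both MuSC-like classes, 4 were at or past 1.5-fold higher in dKO and 0 lower. Among all 8917 genes with as many UMIs, 14.1% were at or past 1.5-fold higher and 19.3% lower. The median log2 ratio was 0.74 over the 7 enzymes and -0.01 over all genes. As dKO levels in MuSCs were among the values known when the genes were chosen, nothing is read from this count.

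**Figure D4:**
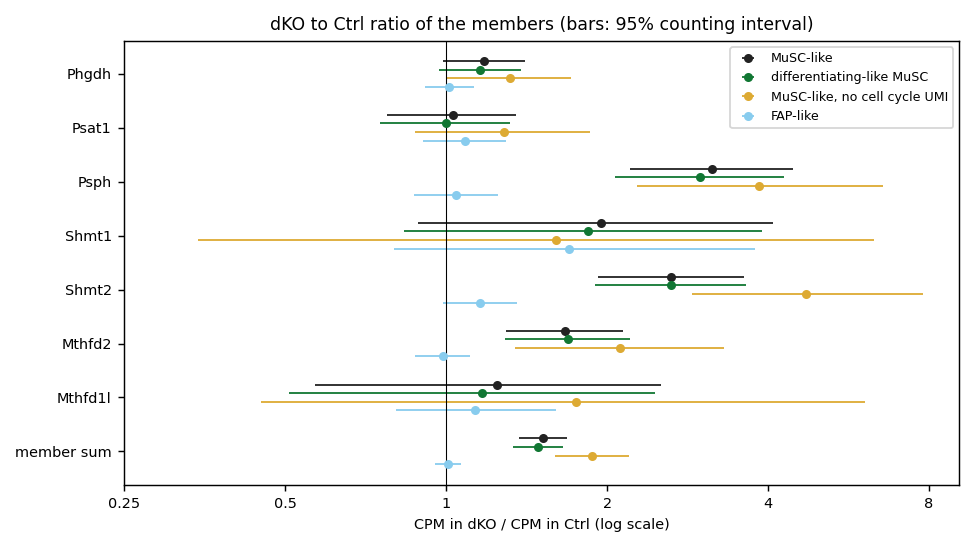
Ratio of dKO to Ctrl CPM for 7 enzymes and the sum of all 8 (member sum), on a log axis with exact 95% counting intervals, in MuSC-like cells (black), differentiating-like MuSCs (green), MuSC-like cells with no cell cycle UMI (yellow) and FAP-like cells (light blue). Aldh1l2, at 0 in Ctrl MuSC-like cells, is not drawn. In MuSC-like cells Psph at 3.14, Shmt2 at 2.64 and Mthfd2 at 1.67 have intervals above 1, and Phgdh at 1.18 and Psat1 at 1.03 do not.

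A single dKO cell held 31.7% of the Psph UMIs of its class, and 1 cell held 36.1% of the Shmt2 and 23.7% of the Mthfd2 UMIs. In Ctrl the corresponding shares were 10.7%, 6.86% and 6.73%. Without the cell with most UMIs of the gene in each library the log2 ratios were 1.39 for Psph, 0.98 for Shmt2 and 0.52 for Mthfd2, against 1.65, 1.40 and 0.74 with it. In differentiating-like cells alone the ratios were 2.98 (2.07 to 4.29) for Psph, 2.63 (1.90 to 3.64) for Shmt2, 1.69 (1.29 to 2.21) for Mthfd2, 1.16 (0.968 to 1.38) for Phgdh and 1.00 (0.751 to 1.32) for Psat1. In that state 4 of 7 enzymes with at least 20 UMIs were past 1.5-fold higher and 0 lower, beside 15.8% and 19.6% of all genes. The median single cell of this state had 21.3 CPM of Psph in Ctrl and 73.3 in dKO, 36.7 and 61.2 of Shmt2, and 244 and 221 of Phgdh. Stem-like cells had 46 Phgdh UMIs in Ctrl and 1 in dKO, a ratio of 0.118 (0.00292 to 0.690), and 17 and 0 UMIs of Psat1. Of their 2 enzymes with at least 20 UMIs, 0 were past 1.5-fold higher and 1 lower, beside 20.4% and 25.9% of all genes. The other was Mthfd2 at 1.14-fold (0.460 to 2.48), and the sum was at 0.651-fold (0.354 to 1.115), from 583010 and 107557 UMIs of all genes. Markers of other cell types were also lower in the dKO cells of this state. The 13 MO/MP markers summed to 1201 CPM in Ctrl and 158 in dKO (1 and 8 at 0, 0 of 13 higher in dKO), and the 12 FAP markers to 2384 and 1190 CPM (1 and 4 at 0, 3 of 12 higher). Their part in the Phgdh ratio was not tested.

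The composition of the MuSC-like class differed between libraries beside these ratios, as the finer split above shows. The 12 cycling markers summed to 741 CPM in Ctrl and 435 in dKO, with 1 of 12 higher in dKO, and the 9 myocyte markers to 2921 and 4486 CPM. Markers of FAPs summed to 903 and 452 CPM (12 genes, 1 and 2 at 0) and those of MO/MP to 452 and 87.3 CPM (13 genes, 1 and 4 at 0), both lower in dKO. Among the 67 Ctrl and 23 dKO MuSC-like cells with no cell cycle UMI after thinning, a group chosen after seeing the data, Psph was 3.84-fold (2.28 to 6.56), Shmt2 4.71-fold (2.89 to 7.80) and Mthfd2 2.12-fold (1.34 to 3.31) higher in dKO. Among cells with at least 30000 UMIs, 32 and 9, the ratios were 3.24, 2.68 and 1.59.

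Genes of neighbouring pathways were taken from 9 lists and read in the same way, by a ratio at or past 1.5-fold among genes with at least 20 UMIs. Of 12 aminoacyl-tRNA synthetases, which charge tRNAs with amino acids, 6 were higher and 0 lower in dKO MuSC-like cells, led by Lars at 2.45-fold (1.96 to 3.04), Gars at 1.997-fold (1.58 to 2.51) and Wars at 1.92-fold (1.28 to 2.84). Of 16 genes of the ATF4 programme, 6 were higher and 1 lower. Pck2, a mitochondrial enzyme that makes phosphoenolpyruvate, was 3.74-fold (2.03 to 6.87) higher, Asns 3.61-fold (2.76 to 4.71) and the transcription factor gene Atf5 2.57-fold (1.83 to 3.60). Gdf15, a secreted stress factor, was at 0.418-fold (0.222 to 0.729), and the Atf4 transcript itself was at 0.992-fold (0.835 to 1.18). These shares stand beside the 14.1% and 19.3% of all genes given above. Of the dKO UMIs, 109 of 113 for Asns and 23 of 24 for Pck2 were in differentiating-like cells. In that state 8 of 15 ATF4 programme genes were higher and 1 lower, beside 15.8% and 19.6% of all genes. In stem-like cells 3 of 12 were higher and 2 lower, beside 20.4% and 25.9%. Of the synthetases 6 of 12 were higher and 0 lower in differentiating-like cells, and 6 of 10 higher and 2 lower in stem-like cells.

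Amino acid carriers were split. Slc1a5, a glutamine and serine carrier, was 2.83-fold (1.61 to 4.91) and Slc7a5 1.78-fold (1.24 to 2.52) higher in dKO. Sfxn1, which brings serine into mitochondria, was at 127 UMIs in Ctrl and 8 in dKO, a ratio of 0.235 (0.0994 to 0.478). Sfxn3, a related mitochondrial serine carrier, was at 48 and 17 UMIs, a ratio of 1.32 (0.713 to 2.34). Of 7 carriers 2 were higher and 1 lower in all. Of 11 purine synthesis genes 1 was higher, Atic at 1.68-fold (1.26 to 2.22), and 1 lower. Methionine cycle genes had 0 of 6 past the fold, glycine cleavage genes 1 of 3 lower, and genes that use serine or glycine 1 of 9 higher and 1 lower. Of 15 cell cycle genes 0 were higher and 7 lower, led by Ccnb1 at 0.256-fold (0.101 to 0.548), Nusap1 at 0.258-fold (0.0679 to 0.696) and Birc5 at 0.473-fold (0.312 to 0.693).

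**Figure D5:**
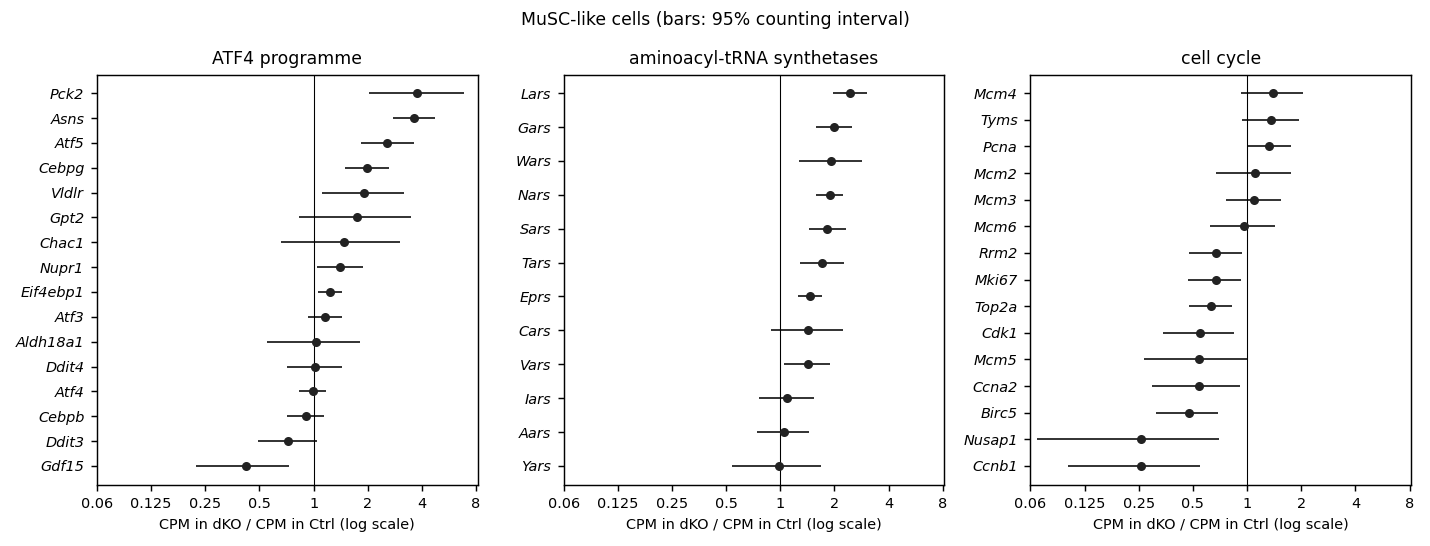
Ratio of dKO to Ctrl CPM in MuSC-like cells for each gene of at least 20 UMIs in 3 of the lists, on log axes with exact 95% counting intervals. Of the synthetases 6 of 12 lie at or past 1.5-fold higher, and of the cell cycle genes 7 of 15 lie at or past 1.5-fold lower.

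Ratios were also taken in the classes where the Cre is not active. In FAP-like cells the sum was at 1.01-fold (0.952 to 1.07), and 1 of 8 enzymes was past 1.5-fold, Shmt1 at 1.70-fold (0.798 to 3.79), beside 4.37% of all genes higher and 6.45% lower. Aldh1l2 was the enzyme of this class whose interval left out 1, at 18.6 CPM in Ctrl and 13.7 CPM in dKO, a ratio of 0.736 (0.612 to 0.883). In Activated-like cells the sum was at 0.795-fold (0.729 to 0.867), with Phgdh at 0.836-fold (0.708 to 0.986), Psph at 0.737-fold (0.551 to 0.986), Shmt2 at 0.784-fold (0.615 to 0.999) and Mthfd2 at 0.785-fold (0.664 to 0.930). The median Activated-like cell was not lower in dKO, with a sum of 323 CPM in Ctrl and 331 CPM in dKO and with 61.8 and 74.3 CPM of Phgdh, while the highest cell reached 2114 CPM in Ctrl and 1624 CPM in dKO. None of the 8 was past 1.5-fold there, beside 5.63% of all genes higher and 8.74% lower. In cycling FAP-like cells Mthfd2 was 1.53-fold (1.17 to 2.01) and Mthfd1l 1.998-fold (1.01 to 4.19) higher. Phgdh was at 145 and 150 UMIs there and Psat1 at 75 and 70, from 1201144 and 1340816 UMIs of all genes. The share of all genes past 1.5-fold was not taken in this class, so nothing is read from these ratios.

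In MO/MP-like cells the sum was at 0.824-fold (0.725 to 0.935) and Psat1 at 0.750-fold (0.579 to 0.967). Phgdh, at 24 and 9 UMIs, was the 1 of 7 enzymes past 1.5-fold lower, at 0.581-fold (0.238 to 1.30), beside 6.58% of all genes higher and 6.93% lower. In EC-like cells Psph was at 26 UMIs in Ctrl and 2 in dKO, a ratio of 0.234 (0.0269 to 0.935), and Shmt2 at 26 and 3 UMIs, a ratio of 0.351 (0.0680 to 1.15). Of the 3 enzymes with enough UMIs there, 1 was higher and 2 lower, beside 7.85% higher and 16% lower of all genes. In dendritic-like cells Mthfd2 was at 45.5 CPM in Ctrl and 80.4 CPM in dKO, a ratio of 1.77 (1.22 to 2.58).

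Outside the set, the genes whose levels over 12 classes were most like the sum of the 8 enzymes were Hells, a chromatin remodelling factor of dividing cells (Pearson r of log2 levels 0.871 in Ctrl and 0.890 in dKO), Atic, which completes purine synthesis (0.864 and 0.934), and Mrto4, a ribosome assembly factor (0.861 and 0.890). For Phgdh alone the genes most alike were Zmynd19, the folate carrier gene Slc19a1 and Dkc1, and for Psat1 Nme1, Eif4e2 and Snrpe. Aldh1l2 was most like Emx2, Bcat1 and Fkbp11, with r of at least 0.914 in each library. The classes share a library and differ in depth, so these values are a description and have no p.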

How the data were processed

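Mononuclear hind limb muscle cells of 3 pooled mice per group were sequenced as 1 Ctrl and 1 dKO droplet library. The authors deposited raw UMI counts per gene and cell, on build mm10 and with Cell Ranger 7.0.0 per the submitters' processing notes, although the matrix headers name another software version. Mitochondrial genes are not in the matrices, so no filter on them was applied. Cells under 500 genes (192 Ctrl, 154 dKO) were left out, then the 7.5% with the highest Scrublet scores (325 and 250), because Scrublet's own threshold marked only 8 and 21. Libraries were integrated and clustered with Seurat 5.3.0 (2000 variable genes without the 8 enzymes, 40 dimensions, resolution 0.8). Clusters were named by marker lists. UMIs were summed per class and library and scaled to its total (CPM). Intervals are exact 95% Poisson, conditional binomial or Clopper-Pearson. PCR and mice are not in them. Code was tested on simulated data. Named related genes are those with at least 20 UMIs, at or past 1.5-fold and an interval that leaves out 1, up to 3 per direction and class; likeness used genes of at least 200 UMIs and log2(CPM + 5). The genes and lists were chosen with earlier results of these data known. The count over the folate cycle list is not reported here.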

Additional observations from a re-analysis of the deposited data

Results flagged for a closer look

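The dKO to Ctrl ratio of Psph had opposite directions in 2 classes: its log2 value was 1.65 in MuSC-like cells and -2.10 in EC-like cells, the latter from 26 and 2 UMIs. The sum of the 8 enzymes likewise had a log2 ratio of 0.60 in MuSC-like and -0.28 in MO/MP-like cells. With 1 library per group neither difference between classes was tested.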

How the results depend on the processing

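No paired analysis was possible because each group is 1 library. The ratios of pooled UMIs recomputed under the alternatives kept their direction where their interval left out 1. The median single cell, not among the alternatives, went the other way for the sum in MuSC-like cells (259.5 CPM in Ctrl, 228 in dKO). It also did for the sum (323 and 331) and Phgdh (61.8 and 74.3) in Activated-like cells, whose dKO to Ctrl ratios were not recomputed. The log2 ratio of the sum in MuSC-like cells, 0.60, was 0.87 with cells of at least 200 genes, 0.43 as the mean of single-cell CPM, 0.39 without the cell with most UMIs in each library and 0.79 after thinning. With choices made after seeing the data it was 0.78 in a finer sub-cluster and 0.91 in cells with no cell cycle UMI. Phgdh, whose interval held 1, was at -0.22 as the mean of single-cell CPM, and Psat1 at -0.76 after thinning. In FAP-like cells the sum was at -0.076 as the mean of single-cell CPM, against 0.012. Activated-like against other FAP-like cells, 2.30 in Ctrl, gave 0.68 with at least 200 genes, where 2 sub-clusters took the name, 1.93 without integration, 2.03 at resolution 0.4, 2.52 as the mean of single-cell CPM and 2.52 after thinning. In dKO, 1.93 became 0.50 with at least 200 genes, 1.64 at resolution 0.4 and 2.15 after thinning. MuSC-like against other cells, 2.17 in Ctrl, gave 1.97 both as the mean of single-cell CPM and after thinning. In dKO, 2.58 became 2.73 with no doublets removed, 2.93 with at least 200 genes, 2.29 as the mean of single-cell CPM and 2.35 without the top cell. Cycling FAP-like against FAP-like cells in dKO, 1.42, gave 1.67 as the mean of single-cell CPM and 1.83 after thinning. Cycling immune against MO/MP-like cells, 2.05 and 2.69, gave 1.33 and 1.99 with C1q cells alone. The causes were not tested.

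Counts of genes past 1.5-fold followed the minimum and the fold. In MuSC-like cells 1259 genes were higher, and 297 with at least 100 UMIs, 2437 with no minimum and 417 at 2-fold; 1721 were lower, and 532 with at least 100 UMIs and 838 at 2-fold. In FAP-like cells 551 higher became 263, 1178 and 188, and 812 lower became 314, 1663 and 247. In MO/MP-like cells 726 higher became 389, 1675 and 228, and 765 lower became 233, 1475 and 280. In EC-like cells 711 higher became 215, 1767 and 177, and 1452 lower became 337 with at least 100 UMIs and 555 at 2-fold. The dKO MuSC-like class rests on 30 cells, and the spread between mice cannot be measured.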
